A study of Mus musculus with 27 samples.

Results

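The genes described here are 9 targets of the transcription factor p53 that act in DNA repair and stress responses: Sesn1, Sesn2, Gdf15, Ddb2, Ercc5, Polk, Plk2, Dcxr and Rps27l. They were chosen by gene symbol, with earlier results of these data known, and all 9 were found among the 38582 genes of the RNA table. Their RNA was read in 4 libraries of mouse embryonic stem (ES) cells, and their loci were searched in 17 lists of chromatin immunoprecipitation (ChIP) peaks. The cells grew in serum medium with leukemia inhibitory factor, and no source used here names their strain. For RNA, 2 libraries carried a control short hairpin RNA (shCtl) and 2 carried a hairpin against Wdr43 (shWDR43), which encodes a WD-repeat protein of the nucleolar machinery that makes the small ribosomal subunit. The genotype of the RNA, Ser5P and shCtl hypoP libraries is labelled wildtype, the other Pol II libraries carry no genotype label, and shCtl is itself a hairpin control, not an untreated culture. ChIP of RNA polymerase II (Pol II) used the same pair of hairpins, 2 libraries each, and an antibody to the hypophosphorylated form (hypoP), to the Ser5P form or to the Ser2P form. WDR43 itself was mapped with a FLAG antibody in 1 library per condition. In cells with Fbio-tagged WDR43 these conditions were DMSO (the solvent control), DRB and ActD (actinomycin D), which are inhibitors of transcription. The other WDR43 libraries are named FB and cFB-KI, with no genotype or treatment label. No source used here gives doses, durations, or the number of hairpins or cell clones. Only the RNA table's header calls its libraries biological replicates, so p-values measure the spread between these libraries, which may be technical in part.

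p53 is stabilised when DNA is damaged and also when ribosome assembly fails, because free ribosomal proteins then bind and inhibit MDM2, the ligase that otherwise marks p53 for destruction. Besides genes that stop the cell cycle or start apoptosis, p53 switches on genes of repair and adaptation. Sestrins (Sesn1, Sesn2) restrain the growth kinase complex mTORC1 through the GATOR complexes, and Gdf15 is a secreted stress hormone of the TGF-beta family that is also induced by the integrated stress response. Ddb2 recognises ultraviolet lesions in chromatin and Ercc5 (XPG) is a nuclease that cuts beside the lesion, both in nucleotide excision repair, whereas Polk is a polymerase that copies past damaged bases. Plk2 is a polo-like kinase of the stress response and of centriole duplication, Dcxr is a reductase of dicarbonyls and of L-xylulose, and Rps27l is a close copy of the ribosomal protein Rps27. p53 binds DNA as a tetramer at pairs of a 10-base motif, the decamer, with CATG or a close variant at its core.

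The sequences before the starts of the 4 members whose RNA rose (below) are shown because peaks of WDR43 and Pol II described later lie around the starts of these genes. They are the 250 bases before the RefSeq start in build GRCm38.p6, written along the direction of transcription, with every match to CCAAT or GGGCGG on either strand in capitals (ATTGG and CCGCCC are the same letters on the other strand). They come from chr11:120727285-120727534 on the minus strand (Dcxr), chr13:110394794-110395043 on the plus strand (Plk2), chr1:44147494-44147743 on the plus strand (Ercc5) and chr13:96542580-96542829 on the minus strand (Polk, the first of its 2 RefSeq starts). The peaks are in build mm9 and were not placed on these letters, and the RefSeq span of Dcxr (2739 bp) is longer than its locus in the RNA table (1909 bp), so its start may differ between them.
Dcxr: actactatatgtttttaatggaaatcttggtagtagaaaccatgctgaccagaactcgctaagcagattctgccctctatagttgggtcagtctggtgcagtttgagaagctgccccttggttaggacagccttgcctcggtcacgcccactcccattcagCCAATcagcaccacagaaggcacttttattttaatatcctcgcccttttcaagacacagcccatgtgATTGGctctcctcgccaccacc
Plk2: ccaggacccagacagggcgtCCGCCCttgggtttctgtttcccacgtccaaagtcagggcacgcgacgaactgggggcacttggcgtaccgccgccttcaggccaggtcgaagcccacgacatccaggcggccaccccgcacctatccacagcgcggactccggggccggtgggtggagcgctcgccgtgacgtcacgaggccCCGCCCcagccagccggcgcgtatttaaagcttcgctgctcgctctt
Ercc5: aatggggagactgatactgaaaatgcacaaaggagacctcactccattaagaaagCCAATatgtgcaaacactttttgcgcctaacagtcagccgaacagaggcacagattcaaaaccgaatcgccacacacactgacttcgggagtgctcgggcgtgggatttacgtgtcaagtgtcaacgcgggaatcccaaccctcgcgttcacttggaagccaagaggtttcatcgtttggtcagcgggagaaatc
Polk: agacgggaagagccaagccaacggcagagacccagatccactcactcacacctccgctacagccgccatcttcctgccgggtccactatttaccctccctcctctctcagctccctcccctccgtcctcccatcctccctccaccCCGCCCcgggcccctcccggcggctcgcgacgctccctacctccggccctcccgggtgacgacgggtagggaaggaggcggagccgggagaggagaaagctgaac

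Of the 4 windows, 3 were rich in CpG and Dcxr was not. Counted with the 50 bases after the start, the Dcxr window held 7 CpG dinucleotides, which is the median of all 32851 RefSeq windows of this length, and Plk2 held 31, Polk 25 and Ercc5 21. CCAAT stood in the Dcxr and Ercc5 windows and GGGCGG in the Plk2 and Polk windows. Over all members, 8 of 9 were matched to the RefSeq table, with 12 windows, and Ddb2 was not. CCAAT was found in 7 of the 12 windows against 37.4% of all windows, GGGCGG in 6 of 12 against 35.7%, and TATAAA in 0 of 12 against 13.6%. TGATGNAA, the core letters of an ATF4 response element, was found in 1 window (the second Polk start) against 3.97%.

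A p53 decamer (3 purines, C, A or T at 2 positions, G, 3 pyrimidines, on either strand) was found in 3 of the 12 windows, against 8.36% of all windows. No member window held 2 exact decamers spaced by at most 13 bases, the full p53 site, which 0.0731% of all windows held. The decamers (in capitals below, with 10 bases on either side) lay before the second RefSeq start of each of these genes, at -173 to -164 in Sesn1, at -231 to -222 in Polk, and at -210 to -201 and -107 to -98 in Rps27l. Sites with a mismatch were not searched. The 10 bases directly before the Rps27l decamer at -107 to -98 fit the decamer pattern except at their last base. Known p53 sites of these genes can lie outside such windows, and a match here describes letters, not binding. The stretches lie at chr10:41887256-41887285 on the plus strand, chr13:96519399-96519428 on the minus strand, and chr9:66946193-66946222 and chr9:66946296-66946325 on the plus strand, in build GRCm38.p6.
Sesn1: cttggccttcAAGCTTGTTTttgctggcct
Polk: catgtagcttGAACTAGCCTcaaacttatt
Rps27l, far: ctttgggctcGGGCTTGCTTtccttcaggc
Rps27l, near: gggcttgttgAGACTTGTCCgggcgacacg

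Wdr43 RNA stood at 82.3 and 78.2 FPKM in the shCtl libraries and 21.2 and 20.7 in the shWDR43 libraries, as the labels say. FPKM counts fragments per kilobase of transcript and per library size, here on the authors' spike-in scale, and read depth is unknown. The summed FPKM of all genes was 1015232 and 1040749 in shCtl and 687051 and 681178 in shWDR43, so the members are read against a broad fall: the median log2 fold change of 12452 tested genes was -0.39, and 78.1% lay below 0. ES cell markers were present in every library (sums 4673.7 and 4777.2, then 2657.2 and 2505.1), and 7 of 8 passed the test as lower. Among all tested genes, 6.10% passed as higher and 42.7% as lower. Of the markers of other cell types, 4 of 5 tested trophectoderm genes were higher (sums 15.5 in both shCtl libraries, then 32.1 and 38.5; Krt19 from 1.7 and 2.1 to 5.9 and 6.2 and Tfap2c from 3.0 and 3.5 to 9.2 and 8.1, with Cdx2 at most 0.3 and Elf5 at most 0.1), as were 1 of 3 tested endoderm genes (sums 3.8 and 4.0, then 6.0 and 5.8; Gata6 from 0.6 in both to 1.9 and 1.3, with Ttr at 0) and 3 of 8 tested fibroblast genes, where 2 were lower (sums 327.7 and 349.6, then 336.2 and 448.8; S100a4 from 46.6 and 54.3 to 79.9 and 117.9, with Dcn and Lum at 0). The 2 lower fibroblast genes were Thy1, from 3.6 and 5.2 to 1.0 and 1.2, and Fn1, from 159.1 and 149.4 to 100.3 and 122.7. The endoderm gene Sox7, too low to be tested, went from 0.8 and 1.2 to 0.3 and 0.4. Of 4 tested neuroectoderm genes 2 were lower and none higher. The part of such cells in the members' changes was not tested.

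In shWDR43 cells, 4 of the 9 genes rose. Dcxr rose 4.41-fold and Plk2 3.97-fold, the repair genes Ercc5 and Polk each rose 1.70-fold, Rps27l was 1.23-fold lower, and Sesn1, Sesn2, Gdf15 and Ddb2 did not pass the test. The fall of Rps27l did not pass after centring of the libraries, without limma's intensity trend or without the filter on low genes (values under Rps27l below), and without the filter Ercc5 and Polk did not pass either. Thus 4 members rose, against 6.10% of all tested genes, and 1 fell, against 42.7% (limma on log2(FPKM + 1), Benjamini-Hochberg adjusted p under 0.05 over 12452 genes). The members and the gene lists were chosen with earlier results of these data known, so these shares are descriptive and no independent test. All 9 members passed the filter of a mean FPKM of at least 1. Both shWDR43 libraries lay above both shCtl libraries for 5 members, against 12.6% of all tested genes, and below them for 3, against 63.6%. The median log2 fold change of the members was 0.21. As these are bulk libraries, fewer cells of a type and less RNA per cell cannot be told apart. With 2 libraries against 2, an exact two-sided permutation test of a single gene cannot go below p = 0.333, so every call rests on the spread shared across genes by limma. With 1 library removed, whichever it was, no gene of the whole table passed the threshold (at an unadjusted p under 0.05, 2 to 4 members were higher and 0 to 1 lower, against 4.63% to 5.86% and 31.5% to 39.4% of all tested genes). The log2 fold changes then ranged from 1.97 to 2.06 for Dcxr, 1.74 to 2.15 for Plk2, 0.51 to 0.90 for Ercc5, 0.43 (without shCtl-2) to 0.91 for Polk and -0.37 to -0.24 for Rps27l.

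**Figure D1:**
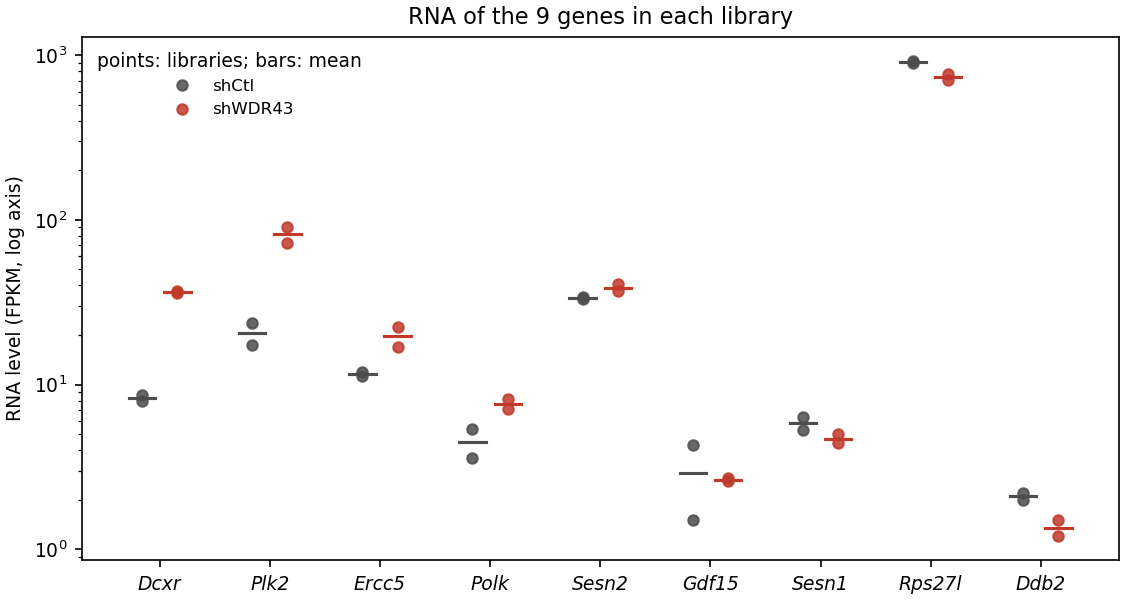
RNA level (FPKM, log axis) of the 9 genes in each of 4 libraries, with grey points for shCtl, red points for shWDR43 and bars for the mean of 2 libraries. Dcxr and Plk2 show the widest gaps between the groups, Rps27l is the most abundant member in all 4 libraries, and the Gdf15 points overlap.

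Among the genes that hold back growth, Sesn1 and Sesn2 gave values of opposite sign. Sesn1 measured 5.3 and 6.4 FPKM in the shCtl libraries and 4.4 and 5.0 in the shWDR43 libraries, with means of 5.85 ± 0.778 and 4.70 ± 0.424 (SD, n = 2). Its log2 fold change was -0.26 ± 0.16 (SE; limma adjusted p = 0.201), and although the groups did not overlap, the gap between 5.3 and 5.0 was smaller than the spread within shCtl. Sesn2 was the more abundant sestrin, at 33.9 and 33.0 FPKM in shCtl and 40.6 and 37.1 in shWDR43. Both shWDR43 values lay above both shCtl values, with a log2 fold change of 0.21 ± 0.13 that did not pass (limma adjusted p = 0.205). When each library was centred on its own median, which moves all members up by 0.33 on the log2 scale, Sesn2 passed as higher (0.54, limma adjusted p = 0.00680) and Sesn1 lay at 0.068. The RNA of an antisense gene, Gm12981, comes from within the Sesn2 locus and stood at 0 to 0.9 FPKM in the 4 libraries, and it is not stated whether reads were counted by strand.

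Sesn3, the sestrin outside the set, measured 4.8 and 2.4 FPKM in shCtl, then 6.7 and 5.5 in shWDR43, with a log2 fold change of 0.67 that did not pass the test. Among 18 tested genes of the sestrin and GATOR route to mTORC1, 0 passed as higher and 6 as lower, and the median was -0.37 against -0.39 for all genes. The shares over all tested genes were 6.10% higher and 42.7% lower. Rragb, a Rag GTPase that recruits mTORC1 to the lysosome, and Mios, a GATOR2 subunit, had the lowest log2 fold changes, -1.54 and -1.03, and both passed. Rragc stood at -0.061 and did not pass. After centring, 1 gene of this list was higher and 4 were lower, against 13% and 20.9% of all tested genes.

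Gdf15 was the only member whose groups overlapped. Its shCtl libraries gave 4.3 and 1.5 FPKM and its shWDR43 libraries 2.6 and 2.7, so the 2 shCtl libraries differed by more than either differed from the shWDR43 libraries. Its log2 fold change was 0.0038 ± 0.33 (limma adjusted p = 0.994), and a change in either direction of the size of that error could not be seen. Without the shCtl library at 1.5 it was -0.54 and without the one at 4.3 it was 0.55, neither passing.

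The integrated stress response, which can also act on Gdf15, showed no common direction. Of its 15 tested genes, 3 rose, 4 fell and 8 did not pass, and the median was -0.28. The shares over all tested genes were 6.10% higher and 42.7% lower. After centring, 3 genes of this response were higher and 2 lower, against 13% and 20.9% of all tested genes. Ddit3 (CHOP) rose from 5.5 and 4.8 FPKM to 17.8 and 20.2, and Ddit4, an inhibitor of mTORC1, rose from 13.1 and 15.6 to 46.1 and 45.0. Atf4, the central factor of this response, fell by 0.82 on the log2 scale. Chac1, an enzyme that degrades glutathione, had the lowest value of the list, from 5.7 in both shCtl libraries to 0.6 and 0.5.

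Of the repair genes, Ercc5 and Polk rose and Ddb2 did not pass. Ercc5 had 11.9 and 11.3 FPKM in the controls and 22.5 and 17 after knockdown, means of 11.6 ± 0.424 and 19.8 ± 3.89 (SD, n = 2). Both shWDR43 libraries lay above both controls, and the log2 fold change of 0.71 ± 0.16 passed (limma adjusted p = 0.0122). Polk, at 5.4 and 3.6 FPKM in shCtl and 8.2 and 7.1 in shWDR43, also had no overlap between groups, with a log2 fold change of 0.67 ± 0.19 that passed (limma adjusted p = 0.0261). Ddb2 had the lowest level of all members, 2.2 and 2.0 FPKM in shCtl and 1.2 and 1.5 in shWDR43. Both of its shWDR43 values lay below both controls, but its log2 fold change of -0.40 ± 0.19 did not pass (limma adjusted p = 0.127), and it was close to the median of all genes. The Ddb2 locus overlaps the end of Acp2, so their reads may not be fully separable. When genes under the filter were kept, neither Ercc5 (adjusted p = 0.0833) nor Polk (adjusted p = 0.138) passed limma's test.

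No other tested gene of the same repair routes passed as higher on the spike-in scale. Of 30 in nucleotide excision repair, 21 fell, against 42.7% of all tested genes, and the median was -0.63. Xrcc1, a scaffold for DNA ligase, had the highest value, from 45.7 and 44.7 FPKM to 62.9 and 50.4, without passing (log2 fold change 0.31), followed by the damage sensor Xpa at 0.11, also not passing. Cetn2, a partner of the lesion sensor XPC, fell by 1.14 and the DNA ligase Lig1 by 1.07 on the log2 scale. Of 11 in translesion synthesis, 8 fell, against the same 42.7%, and the median was -0.48. The deubiquitinase Usp1 fell by 1.27 and Pcna, the sliding clamp to which Polk and related polymerases bind, by 1.48, while Rev1 (0.20) and Ube2b (-0.35) did not pass. After centring, the counts were 2 higher and 12 lower for excision repair and 1 higher and 3 lower for translesion synthesis. Of all tested genes, 13% were then higher and 20.9% lower. Pcna is itself a p53 target and stands on both lists.

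Plk2 gave 23.6 and 17.5 FPKM in the controls and 90.8 and 72.2 after knockdown, means of 20.6 ± 4.31 and 81.5 ± 13.2 (SD, n = 2). Even the lower shWDR43 library was far above the higher control, and the log2 fold change was 1.94 ± 0.18 (limma adjusted p = 0.00109), the 25th highest of the 12452 tested genes. None of its relatives passed as higher on the spike-in scale, and after centring Plk3 did (0.79, limma adjusted p = 0.0201). Plk3, another stress-responsive member of the kinase family, had 6.3 and 9.1 FPKM in shCtl and 12.2 and 9.5 in shWDR43, which did not pass (log2 fold change 0.46), nor did Plk5 (0.44). The mitotic kinase Plk1 fell from 47.5 and 47.3 FPKM to 26.4 and 26.0, and Plk4, the driver of centriole duplication, fell by 0.56 on the log2 scale.

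Dcxr had the largest rise of the set. Its controls read 8.0 and 8.6 FPKM and its shWDR43 libraries 36.2 and 37.0, means of 8.30 ± 0.424 and 36.6 ± 0.566 (SD, n = 2). The libraries of each group lay within 1 FPKM of each other, and the log2 fold change of 2.02 ± 0.13 (limma adjusted p = 0.000717) ranked 16th of all tested genes. Of 9 tested enzymes that reduce dicarbonyls or act on sugar alcohols, 1 rose and 4 fell (1 and 2 after centring), and the median was -0.50. On the spike-in scale, 6.10% of all tested genes rose and 42.7% fell, and after centring 13% were higher and 20.9% lower. Sord, the sorbitol dehydrogenase, was the 1 that rose, from 10.4 and 9.3 FPKM to 13.4 and 13.8. The reductase Dhrs4 fell by 0.93 and the xylulose kinase Xylb, which acts downstream of Dcxr's product, by 0.81 on the log2 scale, and Cbr3 stood at 0.011 without passing.

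Rps27l was by far the most abundant member, at 889.5 and 926.4 FPKM in shCtl and 770.2 and 703.0 in shWDR43, means of 908 ± 26.1 and 737 ± 47.5 (SD, n = 2). Both shWDR43 libraries lay below both controls, and the log2 fold change was -0.30 ± 0.10 (limma adjusted p = 0.0434), a smaller fall than the median gene. With libraries centred on their median the value was 0.027 and did not pass, and limma's adjusted p was 0.118 without the intensity trend and 0.105 without the filter. Its close copy Rps27 was listed at 0.2, 0.2, 0.1 and 0.1 FPKM, whereas 28 other Rps genes in the table had means from 91.6 (Rps15a) to 2645. At a mean of 822 FPKM, Rps27l lay below 26 of these 28. Reads of near-identical copies cannot be told apart in such a table, so the Rps27l value is uncertain, and whether it holds reads of Rps27 was not tested. Rps27a, which encodes a ubiquitin fusion and shares only its name with this pair, fell by 0.61 on the log2 scale.

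**Figure D2:**
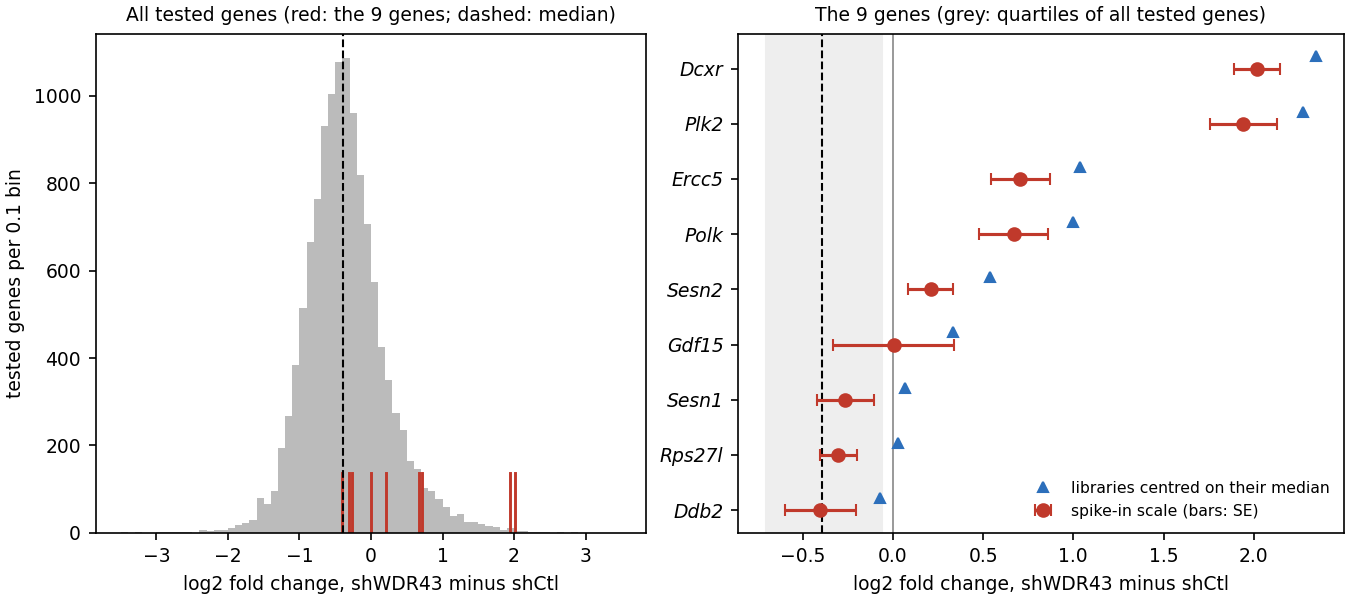
Log2 fold changes, shWDR43 minus shCtl, on log2(FPKM + 1). The left panel is a histogram of all 12452 tested genes with the 9 genes as red ticks and the median of -0.39 dashed, and the right panel gives each gene with its SE (red), its value after centring (blue triangles) and the quartiles of all genes (grey, -0.71 to -0.06). Dcxr and Plk2 lie near 2, Ercc5 and Polk near 0.7, and Rps27l, Sesn1 and Ddb2 within the quartiles of all genes.

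Across the rest of the p53 programme, 43 further targets were tested: 22 rose, 6 fell and 15 missed the threshold. Of all tested genes, 6.10% rose and 42.7% fell. The median of their log2 fold changes was 0.46, and that of the 9 members was 0.21. Perp, a desmosomal and apoptotic target, had the highest value (15.1 and 12.2 FPKM in shCtl, 74.7 and 55.3 in shWDR43), followed by Tap1, a peptide transporter, which rose from 0.4 and 1.4 FPKM to 6.6 and 6.2. The largest falls were those of Pcna and of Gadd45a, a damage-induced growth arrest gene, which fell by 0.95 on the log2 scale. After centring, 30 of these 43 were higher and 2 lower, and 5 of the 9 members were higher and 0 lower, against 13% and 20.9% of all tested genes.

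**Figure D3:**
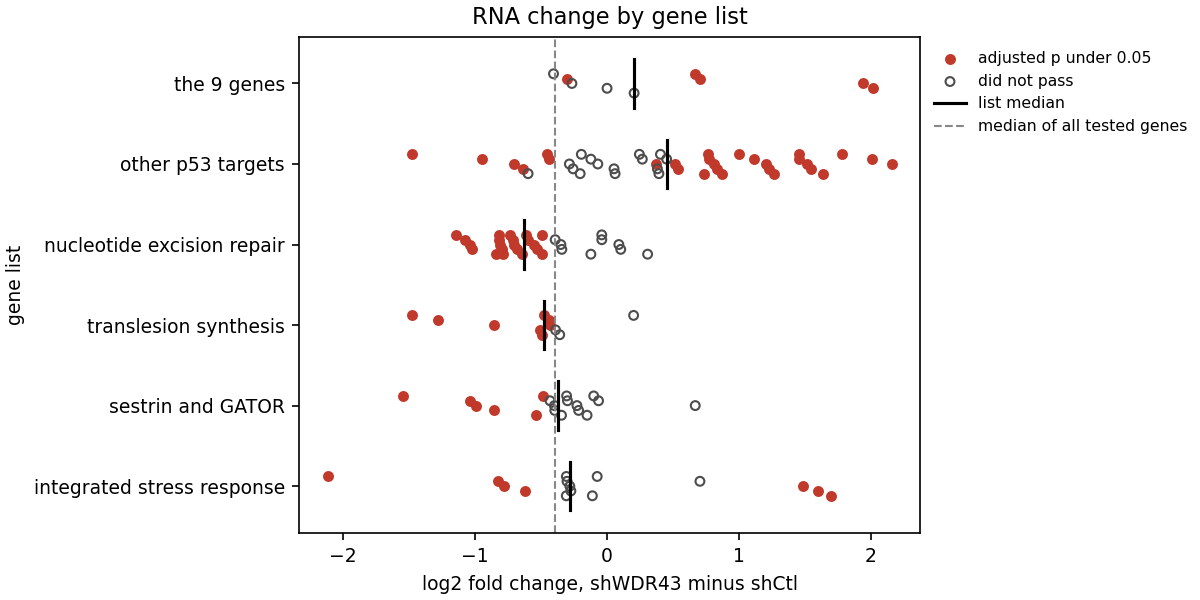
Log2 fold change (shWDR43 minus shCtl) of each tested gene, with 1 row of points per gene list and the median of each list marked. The 43 other p53 targets have a median of 0.46 and the repair lists medians of -0.63 and -0.48.

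For each member, the other tested gene with a mean of at least 5 FPKM whose 4 log2 values, centred on their mean, lay nearest was found by Euclidean distance. Over only 4 libraries this describes a shape and nothing more. For Dcxr it was Klhl26 (distance 0.186), at 5.4 and 5.5 FPKM in shCtl and 29.0 and 27.4 in shWDR43. For Plk2 it was Slc4a11, a membrane transporter (distance 0.209), at 2.7 and 2.4 then 14.5 and 11.6 FPKM. For Polk it was Dffb, the apoptotic DNase (distance 0.0460), at 5.7 and 3.8 then 8.7 and 7.8 FPKM. For Rps27l it was the spindle checkpoint gene Bub3 (distance 0.0131), and for the others Gpaa1 (Sesn1), Calcoco1 (Sesn2), Gm10336 (Ddb2), AK021199 (Ercc5) and an unnamed transcript, XLOC_006469 (Gdf15).

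In the authors' deposited table, the signed fold changes of the members were 4.37 for Dcxr, 3.95 for Plk2, 1.70 for Ercc5, 1.69 for Polk, 1.16 for Sesn2, -1.08 for Gdf15, -1.23 for Rps27l, -1.25 for Sesn1 and -1.51 for Ddb2. Their unadjusted p-values in the authors' deposited table ran from 0.00 (Dcxr) and 0.01 (Plk2) to 0.44 (Gdf15). That table gives 0.04 for Ddb2 and 0.05 for Sesn2, neither of which passed the adjusted limma test.

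Peaks were compared as presence or absence, since each list was called on its own library and its depth is unknown. A member had a peak in a list when a deposited peak shared at least 1 bp with its locus extended by 1 kb on either side (build mm9), and the background is the share of 10652 tested protein-coding loci with a peak by the same rule. Every member had a peak in 7 (Ercc5) to 13 (Rps27l) of the 17 lists. WDR43 peaks stood at 7 of 9 members in DMSO (background 78.7%), 9 of 9 in FB (90.3%) and 7 of 9 in cFB-KI (87.3%). In the DRB and ActD lists, 0 of 9 had one (13.2% and 0.667%). These WDR43 shares lie near those of all loci. Hypophosphorylated Pol II had peaks at 8 members in each shCtl list (90.0% in both) and at 9 in each shWDR43 list (95.2% and 93.3%).

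**Figure D4:**
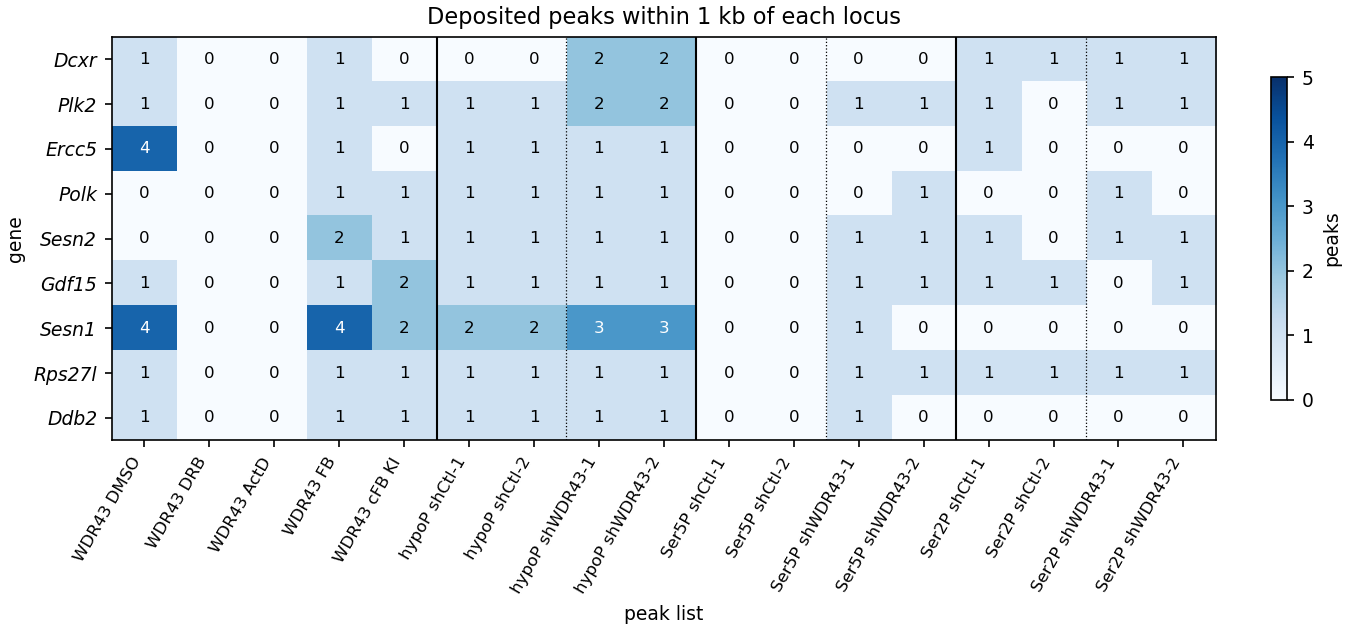
Number of deposited peaks within 1 kb of each locus, with genes in rows and the 17 lists in columns (5 WDR43 lists, then 4 lists each for hypoP, Ser5P and Ser2P). Columns of zeros mark the DRB and ActD lists and both Ser5P shCtl lists, and Dcxr has no hypoP peak in the shCtl lists.

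Dcxr was the only member with hypoP Pol II peaks in both shWDR43 lists and in neither shCtl list, a pattern found at 2.49% of all loci. The other 8 members had such peaks in all 4 lists (87.8% of loci), and no member lacked them in all 4 (3.91%). The reverse pattern, in both shCtl lists alone, stood at 0 members and 0.160% of loci. The shWDR43 lists held 31473 and 24485 hypoP peaks in all and the shCtl lists 19542 and 19561. More hypoP peaks were thus called after knockdown in general, and the part of library depth in this was not tested. The Dcxr locus lies at chromosome 11, 120586687 to 120588595, on the minus strand. The peaks spanned -594 to 1036 bp from its start in shWDR43-1 (score 182.75) and -536 to 897 bp in shWDR43-2 (score 100.74). The score is the authors' own value per peak, at least 50 in every list, and is read here only within a list. In those lists 61.8% and 75.4% of peaks scored higher. WDR43 peaks also covered or adjoined the Dcxr start, at -165 to 68 bp in DMSO and 34 to 242 bp in FB, with none in cFB-KI. Ser5P had no peak at Dcxr in any of 4 lists. Ser2P had 1 in each of 4, but these began at least 2405 bp from the start, past the end of Dcxr. They lay over the neighbouring Rac3 and reached into Lrrc45 beyond it. Rac3 RNA read 3.3 and 4.0 FPKM in shCtl, then 2.3 and 3.3 in shWDR43. Lrrc45 RNA read 3.8 and 3.6 FPKM in shCtl, then 3.5 and 3.4 in shWDR43. A second hypoP peak in each shWDR43 list lay over the same 2 neighbours, so Ser2P and that peak cannot be assigned to Dcxr. Within their lists, 16.9% and 17.4% of peaks scored above this Ser2P peak in shCtl, and 3.94% and 4.59% in shWDR43. Which gene this difference belongs to was not tested. A shCtl-2 hypoP peak (score 53.37) also lay over part of Rac3 and reached into Lrrc45, 2934 bp from the Dcxr locus. With a 5 kb extension it counts as a peak of Dcxr, which ends the pattern. At the start itself neither shCtl list had a peak.

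Plk2 (chromosome 13, 111185252 to 111191051, plus strand) had hypoP peaks over its start in all 4 lists, for example -723 to 937 bp in shCtl-1 and -894 to 1080 bp in shWDR43-2. A further hypoP peak near the end of the locus was listed in shWDR43-1 (5758 to 7512 bp) and shWDR43-2 (6185 to 7449 bp) and in neither shCtl list. The shWDR43 hypoP lists are the larger ones, and the share of all loci with such a further peak was not counted. Ser2P peaks, the form of elongating Pol II, lay over the end of this 5800 bp locus in shCtl-1 and shWDR43-1, with none in shCtl-2. In shWDR43-2 the Ser2P peak (5862 to 6904 bp) began past the end, as did the further hypoP peak of shWDR43-2. WDR43 peaks stood at its start in the DMSO (207 to 496 bp), FB (-567 to 127 bp) and cFB-KI (-785 to 792 bp) lists.

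Ser5P, the form of Pol II that marks early transcription, was listed at members in the shWDR43 lists alone. It was present at 6 and 5 members there (background 32.8% and 38.0%) and at 0 in both shCtl lists (10.8% and 14.0%). Plk2, Sesn2, Gdf15 and Rps27l had it in both shWDR43 lists and neither shCtl list, against 12.2% of all loci and 8 of the 43 other p53 targets. Of these 4 genes, Plk2 alone rose in RNA, and Dcxr and Ercc5, which rose, had no Ser5P peak in any list (46.6% of loci). No member had one in all 4 (3.03%). The shWDR43 lists held 6535 and 7589 Ser5P peaks in all and the shCtl lists 1879 and 2520, so more loci were called after knockdown in general. The 11 Ser5P peaks at members scored 55.12 to 85.54, close to the lowest deposited score, and 0 remained at a score of at least 100 (6.49% and 8.21% of loci in the shWDR43 lists).

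Ser2P peaks stood at 6 and 3 members in the shCtl lists (background 29.1% and 31.4%) and at 5 in each shWDR43 list (26.2% and 26.4%). Dcxr and Rps27l had them in all 4 lists (16.5% of loci), Sesn1 and Ddb2 in none (57.4%). At Rps27l (chromosome 9, 66793925 to 66797316, plus strand) they began in the last part of the locus and ran past its end in 3 lists (3194 to 5785 bp in shCtl-1), and in shWDR43-2 the peak began past the end (3649 to 5542 bp). At Sesn2 (chromosome 4, 132048722 to 132066371, minus strand) they ran over and past the end in shCtl-1 and both shWDR43 lists, up to 21895 bp from the start. Ercc5 (chromosome 1, 44204589 to 44238105, plus strand) had a Ser2P peak in shCtl-1 only, over its start. The Ser2P and Ser5P peaks of Polk (chromosome 13, 97250644 to 97312440, minus strand) each stood in 1 shWDR43 list, lay entirely before its start and fell on or beside Col4a3bp, which begins 249 bp away. When only loci without extension were searched, Ser2P stood at 5 and 2 members in the shCtl lists (22% and 24.0% of all loci) and at 3 and 2 in the shWDR43 lists (19.9% and 19.8%).

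Within 1 kb of the start, 5 of the 8 members with a known strand had a WDR43 peak in DMSO, 8 in FB and 6 in cFB-KI. Of 8083 tested protein-coding loci with a known strand, 69.5%, 84.6% and 83.5% had one, so the members lay near all loci. Rps27l showed it at -135 to 308 bp in DMSO and -512 to 326 bp in FB. Gdf15 (chromosome 8, 73153293 to 73155534, minus strand) had its DMSO peak at 1352 to 2053 bp, in the last part of its short locus, and 2 cFB-KI peaks, at -1101 to 923 bp over the start and at 1051 to 2277 bp. Its FB peak, at 309 to 2133 bp and not over the start itself, had a score of 936.51, which only 0.708% of that list exceeded, and 2.64% of the DMSO list exceeded its DMSO score of 292.63. Gdf15 RNA stood at 1.5 to 4.3 FPKM, so the member with the highest WDR43 scores in the DMSO and FB lists was among the lowest in RNA. The cFB-KI list differed: its 2 Gdf15 peaks scored 57.63 and 122.78, and 88.8% and 45.4% of that list scored higher. The top Gdf15 score there was the lowest among the members with a cFB-KI peak. The Ser5P and Ser2P peaks of Gdf15 overlapped its DMSO and FB peaks. With a score of at least 100 required, WDR43 peaks stood at 3 members in DMSO (Sesn1, Gdf15 and Rps27l; 46.1% of all loci), 7 in FB (75.9%) and 7 in cFB-KI (69.6%).

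**Figure D5:**
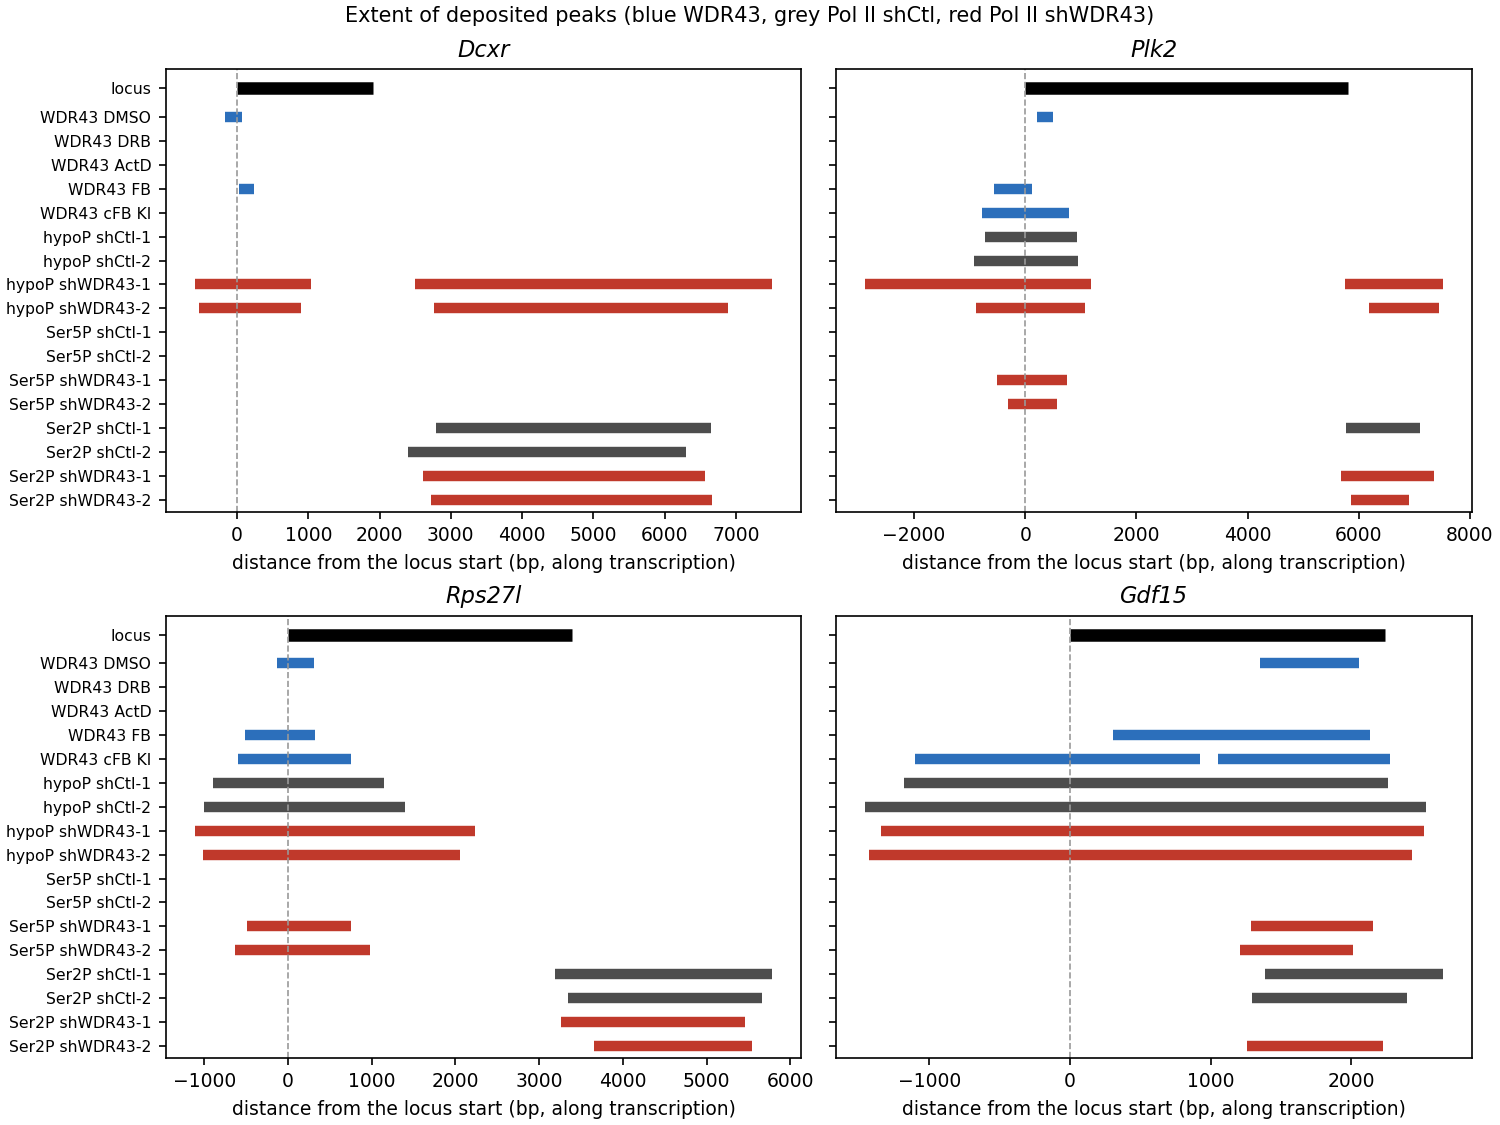
Extent of deposited peaks at Dcxr, Plk2, Rps27l and Gdf15, with distance from the locus start (bp, along transcription) on the horizontal axis and the 17 lists in rows (blue WDR43, grey Pol II in shCtl, red Pol II in shWDR43). At Dcxr the hypoP peaks at the start appear in the 2 shWDR43 rows, and at Plk2 the hypoP peaks past 5 kb do too.

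Sesn1 (chromosome 10, 41530380 to 41628242, plus strand) was the member with a second site far inside its locus in every hypoP list. Besides the start, hypoP Pol II had peaks at 76166 to 77551 bp in shCtl-1, 76046 to 77613 bp in shCtl-2, 76018 to 77571 bp in shWDR43-1 and 76010 to 77491 bp in shWDR43-2. WDR43 had one there in FB (76735 to 77320 bp) and in cFB-KI (76458 to 77408 bp), and none in DMSO. Other WDR43 peaks inside the locus lay at 20377 to 20595 bp in DMSO (score 76.01). In FB they lay at 19338 to 19695 bp (72.04) and 31675 to 31890 bp (51.76). RefSeq lists a second Sesn1 start 76865 bp after the first in build GRCm38.p6, and the p53 decamer printed above lies just before it. The distance was taken within each build, and no coordinate was carried from one to the other. A smaller hypoP peak near 16 kb was listed in both shWDR43 lists (15801 to 16957 bp and 15810 to 16883 bp) and in neither shCtl list. The shWDR43 hypoP lists hold more peaks in general, and the share of all loci with such a gain inside the locus was not counted. Peaks over the first start also lie close to Cep57l1, whose span stops 910 bp before it. The strand of Cep57l1 was not looked up. The hypoP peaks at the first start reach into its span, so they cannot be assigned to Sesn1 alone.

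Ddb2 (chromosome 2, 91051739 to 91077223, strand not matched) had its hypoP peaks in all 4 lists and its WDR43 peaks in DMSO, FB and cFB-KI at 1 end of the locus, between 91076231 and 91078333. A noncoding transcript, XLOC_012536, overlaps that end. Ercc5 and Polk had hypoP peaks over their starts in all 4 lists and WDR43 peaks there in FB, with Ercc5 also in DMSO and Polk also in cFB-KI. The hypoP and WDR43 peaks at the Polk start all reach into the neighbouring Col4a3bp, so they cannot be assigned to Polk alone. Thus the 4 members whose RNA rose had a WDR43 peak within 1 kb of the start in FB, and so had Sesn1, Sesn2, Gdf15 and Rps27l, whose RNA did not rise. The FB peak covered the start itself at 6 of these 8, and at Dcxr and Gdf15 it began after the start.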

How the data were processed

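The authors deposited 1 value per gene and library in an RNA table on a spike-in scale. It was read as FPKM because Cufflinks stands with TopHat in the submitters' processing notes; the table names no unit. Polyadenylated RNA was isolated, per the labels' protocols. Signed fold changes and unadjusted p-values were deposited by the authors. ChIP peaks were called per library; the score is the authors' own, and the submitters' processing notes name Bowtie2 and mm9. No source used here gives caller settings or read depth.

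RNA was compared with limma 3.58.1 (R 4.3.3, intensity trend) on log2(FPKM + 1) of genes with a mean of at least 1, adjusted by the Benjamini-Hochberg method over 12452 genes, and tested on simulated data. Fold changes on this scale understate low genes. Alternatives were the pseudocount, the filter, centring, the trend, a replicate block, each library left out, and the locus extension, score and overlap for peaks. Named genes are the members, Wdr43, the 2 highest and 2 lowest of each pathway list, and the gene nearest in pattern to each member; others (marker genes, Plk3, Rps27, Gm12981, Rac3 and other neighbours) were named after their values were seen. Members and lists were chosen with earlier results of these data known. Of 27 samples, 6 were not used here. Sequences come from RefSeq (GRCm38.p6).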

Additional observations from a re-analysis of the deposited data

How the results depend on the processing

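The rises of Dcxr and Plk2 passed under every alternative that kept all 4 libraries. With any 1 library left out, limma called 0 genes at an adjusted p under 0.05 in all 4 counts (members higher and lower, all genes higher and lower; range 0 to 0). At an unadjusted p under 0.05 such fits gave 2 to 4 members higher, 0 to 1 lower, and 576 to 730 genes higher and 3928 to 4902 lower; the lone library of a group is there assumed to vary like the other group. Without a filter, 2 members were higher and 0 lower, with 402 genes higher and 2593 lower in all, and with a mean of at least 5 FPKM, 472 genes were higher. With libraries centred on their median, 0 members were lower and 1615 genes were higher and 2606 lower, so the share of calls that were lower went from 87.5% to 61.7%; Sesn1 (0.068) and Rps27l (0.027) changed sign. Gdf15 ranged from -0.54 to 0.55 with 1 library left out and was -0.016 without shWDR43-2. Without the trend, 0 members were lower. With the replicate number as a block, 0 members were lower (Rps27l adjusted p = 0.0537) and no other member's call changed; same-numbered libraries deviated together with r = 0.05, so the numbers were not taken as pairs. RNA read depth and ChIP depth are unknown, which limits what an absent peak or a low FPKM can show.

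For peaks, 9 members kept at least 1 in every setting. Of 72 peak counts under the alternatives, 13 moved by over 1.5 times or from or to 0. A 5 kb extension gave 1 member a DRB peak (Dcxr, 3776 bp from its locus) and all 9 a hypoP peak in shCtl-2. With 50% of the peak required in the window, Ser2P stood at 3 and 1 members in shCtl and 3 in each shWDR43 list, and at a score of at least 100 at 2 in each shCtl and 3 in each shWDR43 list, where Ser5P stood at 0 in all 4 lists. The counts without extension and for WDR43 at that score stand with the results.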
